A study of Sus scrofa with 8 samples.

Results

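Signals of 29 CD antigen genes were measured in whole blood of 8 sows (Sus scrofa), each on 1 single-colour Agilent porcine array. The 29 genes are the pig genes on this array whose symbol is CD followed by a number, such as CD2 or CD79A, leaving out CD3D, CD4, CD8A, CD14, CD59, CD74 and CD163. There are 36 genes with a symbol of that form among the 2389 symbols the array's probes could be matched to, and 2382 of those symbols had a usable probe. The pregnant group held 4 sows and the non-pregnant group 4 sows, all inseminated, all of the fifth parity, and all bled from the submandibular vein 14 days after insemination. No treatment or genotype separates the groups, and the series describes 3 pairs of half-sibs and 1 pair of unrelated sows without saying which sows they are. Sows are numbered here by their replicate label, and those with numbers 1 and 3 of each group lay on slide 1, those with numbers 2 and 4 on slide 2.

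CD numbers, for cluster of differentiation, are given to molecules on the surface of blood cells that sets of antibodies recognise, and they are the usual handles by which leukocytes are told apart. Some sit on a single lineage, such as the CD3 chains of the T cell receptor complex or CD79A of the B cell receptor complex. Others, such as the tetraspanins CD9 and CD81, or CD47 and CD55, which shield a cell from phagocytes and from complement, are carried by many cell types. In RNA from whole blood, a change in the number of cells of a type and a change in RNA per cell cannot be told apart.

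All values below are log2 signals relative to the 75th percentile of the same array, so 0 marks a signal at that percentile and a step of 1 is a doubling. A probe's signal also depends on its sequence, so levels are compared between sows and not between genes. Between 61.7% and 69.2% of spots were well above background on each array. Pregnant sow 2 stood apart from the other sows over all probes: it had the lowest 75th percentile (142, against 175 to 296 elsewhere), and its lowest correlation with another array was 0.87. Markers of blood cells other than the CD genes were read beside the blood label. By name, the array held 7 of 24 listed T and NK cell genes and 10 of 17 monocyte and macrophage genes. It held 9 of 15 platelet genes and 11 of 22 neutrophil genes. In the same order, 7 of 7, 10 of 10, 9 of 9 and 10 of 11 passed the filter on dim probes. Over all named genes 76.2% passed, so these counts alone say little about the tissue. Of the red cell list, 3 of 20 genes were on the array by name, of which HBE1 and KLF1 were well above background on 8 of 8 arrays and the transferrin receptor TFRC on 0. Of the B cell list, the only gene present, FCER2, was not well above background either.

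Nearly all of the CD genes were detected. Of the 29, 26 were well above background on all 8 arrays, and 27 (93.1%) passed the filter, which asks for 4 of 4 arrays of at least 1 group; over all named genes the share was 76.2%. The exception among the 27 is CD209, a lectin of dendritic cells and macrophages that binds pathogen sugars, which was well above background on 4 pregnant and 3 non-pregnant arrays. CD34, a marker of blood stem cells and of the lining of vessels, was well above background on 1 of 8 arrays by its brightest probe, with values from -6.06 to -4.55. A second CD34 probe was so on 1 pregnant and 2 non-pregnant arrays, and the remaining probe on 0 of 8. CD163L1, a scavenger receptor related to CD163, was likewise well above background on 1 array, with values from -6.79 to -4.48. The single array of either brightest probe was of a non-pregnant sow, and no fold is given because the non-pregnant means (-5.11 for CD34 and -5.14 for CD163L1) lay below the lowest signal well above background on the pregnant arrays (mean -4.50).

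**Figure D1:**
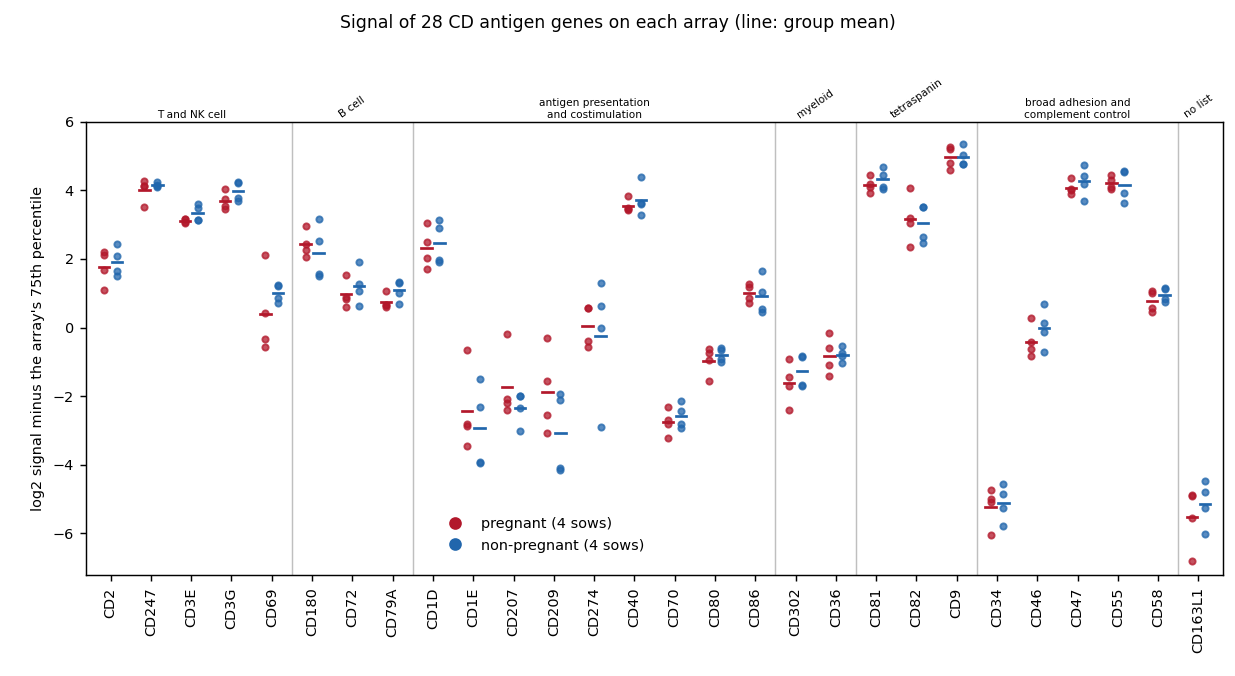
Log2 signal minus the 75th percentile of the array (vertical axis) for 28 of the 29 genes (horizontal axis, grouped by lineage list); each point is 1 sow, red for pregnant and blue for non-pregnant, and lines are group means of 4 sows. The red and blue ranges of every gene drawn overlap, and CD34 and CD163L1 lie at -4.48 or below on all arrays.

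No difference between pregnant and non-pregnant sows was called in any of the 27 genes tested, which does not show that the groups were equal. Limma called 0 of 27 at an adjusted p under 0.05, and 0 of 26480 probes (0% of all tested; smallest adjusted p over all probes 0.525). Each of the 27 genes had a limma adjusted p of 1.00, and this holds for every gene given with a fold below. At an unadjusted p under 0.05 there were 0 of 27 genes, against 608 of all probes (2.3%). The groups overlapped in all 27, while they did not overlap in 1.57% of all probes. The log2 fold change (pregnant minus non-pregnant) was negative in 19 genes and positive in 8, with a median of -0.15, where 56.5% of all probes were negative and their median was -0.04; the median of the 27 was 0.25 with normexp background correction, which moved the median of all probes to -0.20. That correction raised the lowest signals of some arrays far more than of others, as described at the end. Without it, the 95% interval of a gene reached a median of 0.68 to either side on the log2 scale, before any adjustment for the number of probes. For 26 of the 27 genes the filter could not act through 1 group, since they were well above background on every array.

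**Figure D2:**
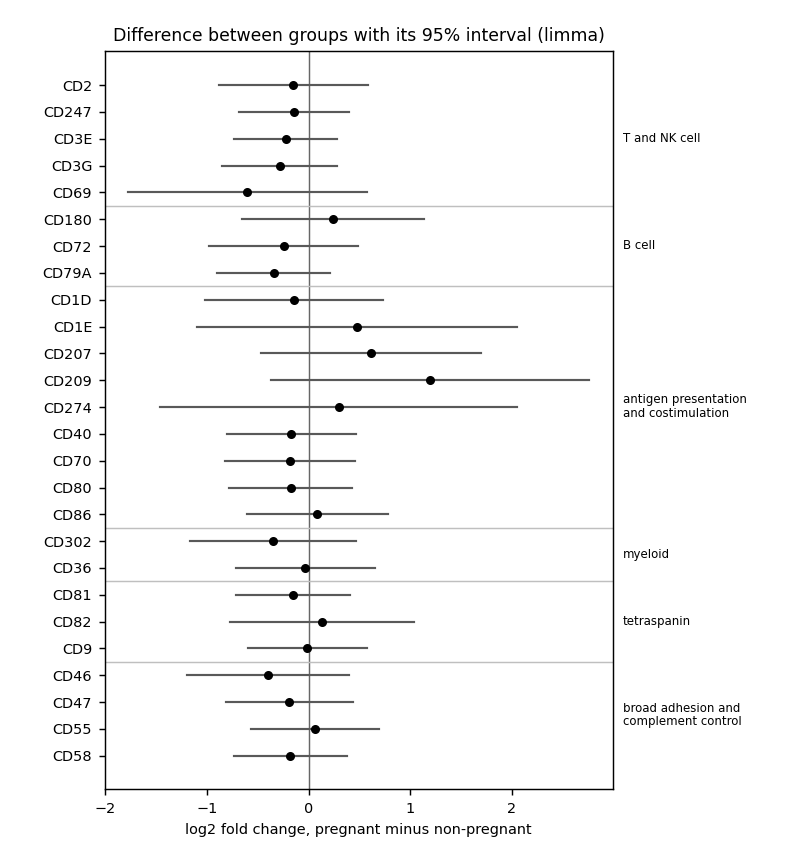
Log2 fold change, pregnant minus non-pregnant, with its 95% limma interval (horizontal axis) for 26 of the 27 genes tested (vertical axis, grouped by lineage list). All 26 intervals drawn include 0, and the widest belong to CD274, CD1E and CD209.

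The T and NK cell list held CD2, CD3E, CD3G, CD247 and CD69, and 0 of 5 passed the test. All 5 had a negative log2 fold change (median -0.22, range -0.60 to -0.15), although 4 of the 5 were positive with normexp background correction (median 0.52). CD3E, a signalling chain of the CD3 complex, gave 3.16, 3.04, 3.17 and 3.08 in pregnant sows 1 to 4 and 3.14, 3.48, 3.12 and 3.60 in non-pregnant sows 1 to 4. The pregnant sows lay close together and 2 of the non-pregnant sows, numbers 2 and 4, stood above all of them. The means were 3.11 ± 0.065 and 3.34 ± 0.24 (SD, n = 4 each), a fold of 0.856 (95% interval 0.603 to 1.21). On slide 1 alone the log2 fold change of CD3E was 0.04 and on slide 2 -0.48.

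CD3G, the gamma chain of the same complex, gave 3.76, 3.45, 3.53 and 4.04 in pregnant sows and 4.24, 4.20, 3.70 and 3.77 in non-pregnant sows. Pregnant sows 2 and 3 were below all others, and pregnant sow 4 lay among the non-pregnant values. Its fold was 0.822 (0.556 to 1.22), with log2 fold changes of -0.33 on slide 1 and -0.24 on slide 2. A second, dimmer CD3G probe gave -1.21, -1.86, -1.72 and -1.2 in pregnant sows and 0.27, -0.97, -0.97 and -0.82 in non-pregnant sows, so that its groups did not overlap. Its log2 fold change was -0.88 ± 0.34 (SE), with a limma unadjusted p of 0.0272 and an adjusted p of 1.00. It was the only 1 of 19 further probes of these genes whose groups did not overlap, which held for 1.57% of all probes, and an unadjusted p under 0.05 for 2.3%. It is named after its values were seen.

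CD247, the zeta chain that carries most of the signalling motifs of the T cell receptor, gave 4.27, 3.52, 4.14 and 4.12 in pregnant sows. In non-pregnant sows it gave 4.11, 4.25, 4.15 and 4.13, with an SD of 0.0602, the smallest of any gene and group among the 27. Pregnant sow 2 alone lay below the rest: the log2 fold change was -0.15 over all sows and 0.02 without it. CD69, an early activation antigen of lymphocytes, gave 0.42, -0.57, -0.34 and 2.12 in pregnant sows and 0.86, 0.72, 1.23 and 1.21 in non-pregnant sows. Both the highest and the 3 lowest values were from pregnant sows, whose SD was 1.22 against 0.25 in the non-pregnant group. Its fold was 0.659 (0.291 to 1.49), and its log2 fold change of -0.60 ran from -1.17 without pregnant sow 4 to -0.28 without pregnant sow 2. CD2, an adhesion receptor of T and NK cells, ran from 1.08 in pregnant sow 2 to 2.43 in non-pregnant sow 1.

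All 7 T and NK cell genes with other names (LCK, SH2D1A, GZMB, GZMH, GZMK, KLRK1 and NCR1) had log2 fold changes below 0 (median -0.46, 0 called), although 5 of the 7 were positive with normexp background correction (median 0.11). Their mean level ran from 0.99 to 1.38 in pregnant sows and from 1.33 to 1.84 in non-pregnant sows. Over all probes, 56.5% of the log2 fold changes were below 0. The groups did not overlap in 1 of the 7, SH2D1A, against 1.57% of all probes. These levels are given beside the CD3 chains because both lists share a sign, so the shared sign is not a separate result. The part of these 7 genes in the CD3 values was not tested.

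The B cell list held 4 genes, among them CD72, CD79A and CD180, and 0 of 4 passed the test. Of the 4 log2 fold changes, 3 were negative (median -0.23), although 3 were positive with normexp (median 0.20). The median was -0.07 without non-pregnant sow 1 and -0.38 without pregnant sow 1. CD79A, which with CD79B passes the signal of the B cell receptor into the cell, gave 1.06, 0.66, 0.66 and 0.60 in pregnant sows and 1.32, 1.31, 0.70 and 1.01 in non-pregnant sows. Pregnant sows 2 to 4 lay below all non-pregnant sows, and pregnant sow 1 lay among them. Its means were 0.74 ± 0.22 and 1.09 ± 0.30 (SD, n = 4 each), and its fold was 0.789 (0.537 to 1.16), with log2 fold changes of -0.15 on slide 1 and -0.53 on slide 2.

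CD72, an inhibitory receptor of B cells, gave 1.54, 0.84, 0.89 and 0.60 in pregnant sows and 1.90, 1.27, 0.62 and 1.07 in non-pregnant sows. The order of the sows was close to that of CD79A, with non-pregnant sow 1 highest and pregnant sow 4 lowest for both. The fold of CD72 was 0.843 (0.506 to 1.40). CD180, a relative of the Toll-like receptors on B cells and antigen-presenting cells, gave 2.96, 2.06, 2.26 and 2.43 in pregnant sows and 3.16, 1.56, 1.5 and 2.52 in non-pregnant sows. It alone in the list had a positive log2 fold change, 0.24, which was 0.01 without non-pregnant sow 3 and 0.57 without non-pregnant sow 1.

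Genes of antigen presentation and costimulation were CD1D, CD1E, CD40, CD70, CD80, CD86, CD207, CD209 and CD274, and 0 of 9 passed the test. Of the 9 log2 fold changes, 5 were positive and 4 negative, and their median of 0.09 was -0.07 without non-pregnant sow 4, -0.04 without non-pregnant sow 3 and -0.19 with normexp. CD209 passed the filter through the pregnant group alone, in which its mean was higher, so its difference is given as a description. Its signal was -3.07, -0.31, -1.56 and -2.56 in pregnant sows and -4.08, -1.93, -2.10 and -4.16 in non-pregnant sows. Pregnant sow 2 was highest and non-pregnant sows 1 and 4 were lowest, and the signal of non-pregnant sow 4 was not well above background. Its means were -1.87 ± 1.22 and -3.07 ± 1.22 (SD, n = 4 each), and its fold was 2.29 (0.772 to 6.80). The log2 fold change of 1.2 was 0.67 without pregnant sow 2 and -0.50 with normexp.

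CD207, the langerin of Langerhans cells, gave -0.20, -2.19, -2.41 and -2.09 in pregnant sows and -2.0, -2.35, -3.01 and -1.99 in non-pregnant sows. Pregnant sow 1 alone stood out, and the other 7 sows ran from -3.01 to -1.99. Its fold of 1.53 (0.721 to 3.25) corresponds to a log2 fold change of 0.61, which was 0.11 without that sow and -0.19 with normexp. CD1E, an MHC class I relative that helps load lipid antigens onto other CD1 molecules, gave -3.45, -0.64, -2.80 and -2.86 in pregnant sows and -3.94, -2.33, -3.91 and -1.49 in non-pregnant sows. Pregnant sow 2 was the highest here too, and the log2 fold change of 0.48 was -0.12 without it and -0.61 with normexp. CD80, which engages CD28 and CTLA4 on T cells, gave -0.62, -1.55, -0.74 and -0.96 in pregnant sows and -0.66, -0.59, -0.99 and -0.92 in non-pregnant sows. Pregnant sow 2 was the lowest, and the log2 fold change of -0.18 was 0.02 without it.

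The remaining genes of this list were described by their range only. CD1D, which presents lipids to NKT cells, ran from 1.72 to 3.13, CD40, the receptor through which helper T cells activate B cells and dendritic cells, from 3.29 to 4.40, CD86, the other ligand of CD28, from 0.46 to 1.65, and CD70, the ligand of CD27, from -3.22 to -2.13. All were well above background on 8 of 8 arrays. CD274, the inhibitory ligand PD-L1, had the widest range of the 27 genes and is described here after its values were seen. It gave 0.58, 0.58, -0.38 and -0.58 in pregnant sows and 1.30, -2.90, -0.02 and 0.64 in non-pregnant sows. The highest and the lowest sow, 18.3-fold apart, were both non-pregnant, and the 7 sows other than non-pregnant sow 2 lay between -0.58 and 1.30. Its log2 fold change was 0.29 (95% interval -1.46 to 2.05) and -0.59 without non-pregnant sow 2; on slide 1 alone it was -0.54 and on slide 2 1.13.

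Only CD36 and CD302 represented the myeloid list, and 0 of 2 passed the test; the median of their log2 fold changes, -0.19, was 0.04 without pregnant sow 2. CD36, a scavenger and fatty acid receptor of monocytes and platelets, gave -0.16, -1.42, -1.09 and -0.61 in pregnant sows and -0.54, -1.03, -0.75 and -0.84 in non-pregnant sows. Pregnant sows took both ends of the range, and the group means were close, -0.82 ± 0.55 and -0.79 ± 0.20 (SD, n = 4 each). Its log2 fold change of -0.03 was 0.17 without pregnant sow 2, 0.06 without pregnant sow 3 and 0.05 without non-pregnant sow 1. CD302, a lectin-like receptor of monocytes, macrophages and dendritic cells, gave -0.92, -2.40, -1.44 and -1.70 in pregnant sows and -0.82, -0.87, -1.70 and -1.68 in non-pregnant sows. The log2 fold change of CD302, -0.35, was -0.09 without pregnant sow 2, the lowest sow. On slide 1 alone it was 0.08 and on slide 2 -0.78. Monocyte and macrophage genes under other names had 8 positive log2 fold changes of 10 tested (median 0.25, 0 called), or 6 with normexp (median 0.72), and their mean level ran from 0.97 to 1.43 in pregnant sows and from 0.75 to 1.14 in non-pregnant sows; their part in the values of CD36 and CD302 was not tested.

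The tetraspanins CD9, CD81 and CD82 thread the membrane repeatedly and gather receptors and integrins into membrane domains; 0 of 3 passed the test. Their log2 fold changes were 1 positive and 2 negative (median -0.01), and all 3 were positive with normexp (median 0.80). With 1 sow left out, the median ran from -0.11 without pregnant sow 4 to 0.11 without pregnant sow 3. CD81, which is carried by B and T cells, gave 4.45, 3.92, 4.18 and 4.11 in pregnant sows and 4.11, 4.44, 4.03 and 4.68 in non-pregnant sows. Both groups held high and low sows. The sign differed between the slides, with a log2 fold change of 0.25 on slide 1 and -0.55 on slide 2. The fold over both slides was 0.900 (0.611 to 1.33).

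CD82, a tetraspanin of many leukocytes, gave 3.06, 4.06, 3.19 and 2.35 in pregnant sows and 2.47, 3.5, 3.52 and 2.65 in non-pregnant sows. Pregnant sows 2 and 4 marked its highest and lowest value. Its log2 fold change of 0.13 was -0.17 without pregnant sow 2 and -0.06 without non-pregnant sow 1. CD9, abundant on platelets, gave 5.2, 4.79, 4.60 and 5.27 in pregnant sows and 5.04, 4.76, 4.77 and 5.35 in non-pregnant sows. In both groups sows 1 and 4 lay above sows 2 and 3, and the means were 4.96 ± 0.32 and 4.98 ± 0.28 (SD, n = 4 each). Its fold was the closest to 1 of the 27 genes, 0.990, with a 95% interval of 0.660 to 1.49. Platelet genes under other names had a mean level of 2.65 to 2.95 in pregnant sows and 2.76 to 3.47 in non-pregnant sows, with 3 positive and 6 negative log2 fold changes of 9 (median -0.18, 0 called; 0.29 with normexp, -0.02 without non-pregnant sow 1, -0.34 without non-pregnant sow 3 and -0.31 without non-pregnant sow 4); their part in the CD9 values was not tested.

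Adhesion, signalling and complement control were represented by CD46, CD47, CD55 and CD58, and 0 of 4 passed the test. Of their log2 fold changes 3 were negative (median -0.18, and -0.12 without pregnant sow 3), although 3 of the 4 were positive with normexp (median 0.39). CD46, a membrane cofactor for the cleavage of complement, gave 0.27, -0.84, -0.63 and -0.43 in pregnant sows and 0.68, -0.70, 0.12 and -0.13 in non-pregnant sows. Sow 1 was the highest and sow 2 the lowest of each group. Its fold was 0.758 (0.437 to 1.31), and the log2 fold change of -0.40 was -0.17 without non-pregnant sow 1 and -0.63 without non-pregnant sow 2.

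CD55, which speeds the decay of complement convertases, gave 4.44, 4.04, 4.29 and 4.11 in pregnant sows and 4.52, 3.63, 3.91 and 4.56 in non-pregnant sows. The pregnant values all fell inside the non-pregnant range. Its log2 fold change was 0.07, and it was -0.01 without pregnant sow 1, -0.11 without non-pregnant sow 2 and -0.02 without non-pregnant sow 3. CD47, the signal that keeps phagocytes from engulfing a cell, gave 4.36, 4.05, 4.01 and 3.88 in pregnant sows and 4.41, 3.70, 4.19 and 4.75 in non-pregnant sows. Here too the pregnant sows lay inside the range of the non-pregnant sows. The fold of CD47 was 0.878 (0.571 to 1.35), and its log2 fold change of -0.19 was -0.03 without non-pregnant sow 4, the highest sow. CD58, the ligand of CD2, gave 1.00, 0.58, 0.46 and 1.07 in pregnant sows and 1.12, 1.14, 0.75 and 0.82 in non-pregnant sows. Pregnant sows 2 and 3 were below all others, and the fold was 0.883 (0.602 to 1.30).

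The genes differed in how far the sows spread. The range over the 8 sows was widest for CD274 (18.3-fold), CD1E (9.85-fold), CD207 (7.02-fold) and CD69 (6.47-fold). CD209 spanned 13.7-fold over the 7 sows in which it was well above background. CD1E, CD207 and CD209 were dim, with group means from -3.07 to -1.72. CD70 was dim too (-2.76 in pregnant and -2.57 in non-pregnant sows) and spanned 2.12-fold. The part of signal level in these ranges was not tested. The range was narrowest for CD3E (1.48-fold), CD58 (1.60-fold) and CD79A (1.65-fold). The median SD within groups was 0.41 over the 27 genes and 0.46 over all probes. Non-pregnant sow 1 was the highest of the 8 sows in 11 of the 27 genes (40.7%), against 18.2% of all probes; these were CD2, CD3G, CD40, CD46, CD70, CD72, CD79A, CD86, CD180, CD274 and CD302. Without non-pregnant sow 1, the median log2 fold change of the 27 was -0.04, and without pregnant sow 1 it was -0.25.

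Pregnant sow 2, the array that stood apart, was the lowest of the 8 in 10 genes (37%), close to its share over all probes (37.8%). Those 10 were CD2, CD3E, CD3G, CD36, CD46, CD69, CD80, CD81, CD247 and CD302. It was the highest in CD1E, CD82 and CD209 (11.1%, against 21.8% of all probes). The mean level over the neutrophil genes was highest in this sow, 3.34, against 2.0 to 2.76 in the other 7 sows. That did not hold for each gene: MMP9, S100A12 and ALOX5AP were highest in a non-pregnant sow (8.91, 3.74 and 7.17). Of 10 neutrophil genes tested, 8 had a positive log2 fold change (median 0.19, 0 called). Their median was 0.76 with normexp. With 1 sow left out, it ran from -0.04 without non-pregnant sow 3 to 0.50 without pregnant sow 4. Red cell genes, HBE1 and KLF1, were also highest in pregnant sow 2, at a mean of 3.1 against 0.08 to 2.16. The part of either list in the values of pregnant sow 2 was not tested.

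**Figure D3:**
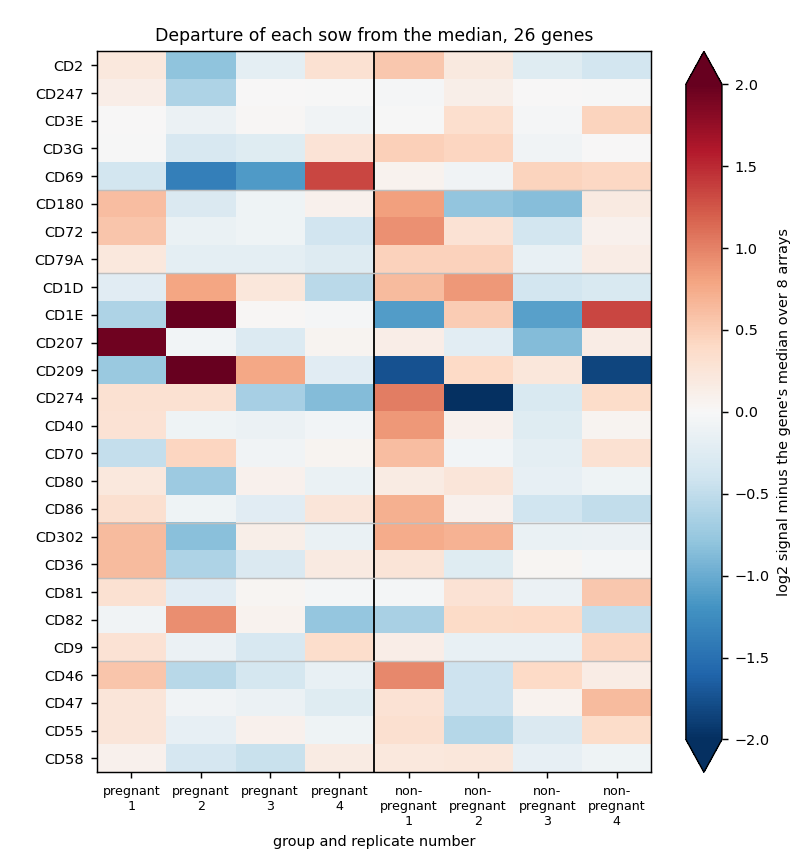
Heat map of 26 of the 27 genes tested (rows, grouped by lineage list) in the 8 sows (columns); colour is the log2 signal minus the median of that gene over the 8 sows, with colours clipped at 2 in either direction. Non-pregnant sow 1 is the highest sow in 11 rows and pregnant sow 2 the lowest in 10.

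Further probes of the same genes were read on the same arrays. Of the 29 genes, 14 had more than 1 probe, and 19 further probes of 12 genes passed the filter. The log2 fold change had the sign of the brightest probe in 14 of the 19. Over the 8 sows, 11 of the 19 correlated positively with the brightest probe at an adjusted p under 0.05 (exact permutation test of Pearson r, two-sided, adjusted over the 19). The second CD82 probe followed the first at r = 0.99 (exact permutation p = 7e-05, adjusted p = 0.00133; rho = 0.98, p = 0.0004, adjusted p = 0.0076; r = 0.99 without the 2 sows farthest from the median). Of the 4 further CD9 probes, 3 passed at r of 0.95, 0.92 and 0.89 and the fourth had r = 0.74 (adjusted exact permutation p = 0.0538). The 4 probes with a negative r belonged to CD1D (-0.16 and -0.11) and CD36 (-0.24 and -0.79), so the values of those genes depend on the probe. The fourth CD36 probe, with r = -0.79, was highest in pregnant sow 2 (-1.58), where the brightest CD36 probe was lowest (-1.42).

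Genes whose proteins form a complex, bind each other or share a role were then compared across sows, in 7 pairs, called partner pairs below. CD80 and CD86 share the receptors CD28 and CTLA4, and CD46 and CD55 both act in complement control. CD2 and its ligand CD58 had the highest correlation over the 8 sows (Pearson r = 0.81, exact permutation p = 0.0139, adjusted over 7 pairs p = 0.0972; Spearman rho = 0.69, p = 0.0694, adjusted p = 0.425, both two-sided). The correlation of CD2 and CD58 did not pass after adjustment. It was 0.75 without the 2 sows farthest from the CD2 median, 0.78 without pregnant sow 2 and 0.82 within groups. In the RefSeq annotation of Sscrofa11.1, CD2 and CD58 lie near each other, with 1 protein-coding gene between them. CD3E and CD3G, also with 1 protein-coding gene between them, had r = 0.27, which was 0.09 without pregnant sow 2 and -0.05 within groups. CD3E and CD247 had r = 0.41, which was 0.82 without the 2 sows farthest from the CD3E median and 0.22 without pregnant sow 2. Other pairs were CD46 and CD55 (r = 0.57), CD9 and CD81 (0.48) and CD80 and CD86 (0.38). The smallest exact permutation p among the 6 pairs other than CD2 and CD58 was 0.144, and a slide held 4 sows, too few for a value within it.

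**Figure D4:**
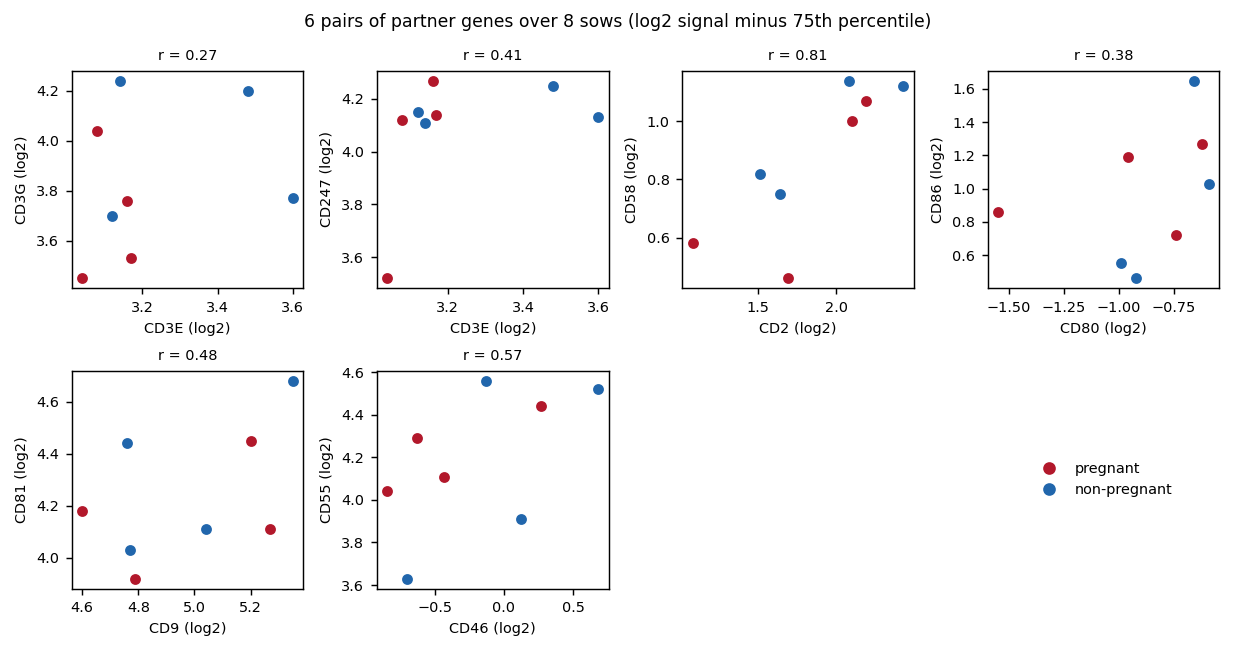
Log2 signal minus the 75th percentile of the array for 6 partner pairs, 1 panel a pair with the first gene on the horizontal and the second on the vertical axis; points are the 8 sows, red for pregnant and blue for non-pregnant. CD2 and CD58 lie closest to a line (r = 0.81), and CD3E and CD3G show the lowest r drawn (0.27).

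CD antigens known by other symbols, such as integrins, selectins and cytokine receptors, gave the setting for these genes. Of 113 listed, 65 were on the array by name and 57 were tested, with 28 positive and 29 negative log2 fold changes, a median of -0.01 (0.35 with normexp) and 0 called. At an unadjusted p under 0.05 there was 1 of 57, against 2.3% of all probes: ENG, an accessory receptor for TGF-beta (CD105). Its pregnant mean was -0.05 ± 0.16 and its non-pregnant mean -1.02 ± 0.92 (SD, n = 4 each; limma adjusted p = 1.00). The groups did not overlap in 1 of 57, against 1.57% of all probes: CTLA4, the inhibitory receptor for CD80 and CD86 (CD152). Its means were -2.57 ± 0.19 in pregnant and -2.07 ± 0.21 in non-pregnant sows (limma adjusted p = 1.00). The most negative log2 fold change was that of ENTPD1 (CD39), an enzyme that degrades extracellular ATP, at -1.17, from a pregnant mean of -2.13 ± 1.22 and a non-pregnant mean of -0.96 ± 0.33 (limma adjusted p = 1.00).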

How the data were processed

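Whole-blood RNA of 8 sows was measured, 1 single-colour array each. Per the file headers, Agilent Feature Extraction 10.7.3.1 wrote the deposited scanner files, and their processed signal is a spot intensity with background and spatial trend removed and arrays not yet normalized to each other. A deposited log2 table came with no statement of its normalization in the labels or headers; its columns followed log2 of the processed signal of the same array (r of at least 0.99895), all with an upper quartile of 7.75 to 7.76, so its direction is that of the signal and its centring stays unknown.

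Control spots and outlier spots were left out and spots of a probe averaged. The log2 signal was taken relative to the 75th percentile of each array. Of 43603 probes, 215 were dropped, and 26480 (60.7%) stayed, each well above background on 4 of 4 arrays in 1 or both groups. Groups were compared with limma 3.58.1 in R 4.3.3 (two-sided, no covariates), adjusted by Benjamini-Hochberg over all probes kept, at a threshold of 0.05. Tables used pandas 2.3.3. Correlations used exact permutation.

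Probes were named through RefSeq accessions in the Sscrofa11.1 table, 5461 of 5779 probes with such an accession, and a gene is its brightest probe. Up to 4 genes of smallest unadjusted p per lineage list, and any called, not overlapping or detected in 1 group only, were given with full values; the others, except where stated, with range and detection. The values of 1 gene, counted in the totals, are not reported here. The members, lists and rules were chosen with earlier results of these data known. The labels do not say that same-numbered sows are related. Spread within a group holds animal and array, which cannot be told apart. The number of arrays limits precision. In data simulated with independent normal spread and 200 changed probes, limma recovered 7.46% of 2-fold, 65.7% of 4-fold and 90.9% of 8-fold changes at that threshold. It also called 7 unchanged probes. The measured probes were not independent, since pregnant sow 2 was the highest or lowest sow in 59.6% of them. The simulated shares may therefore not hold for these arrays. Alternatives were other scaling, background correction, filters, slide and replicate blocks, single slides, the deposited table, variance and weight options, probe choice, and each array left out.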

Additional observations from a re-analysis of the deposited data

Results flagged for a closer look

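Within the groups of 4 sows, 3 of 54 gene and group combinations held a sow far from the other 3 (gap to the nearest over the whole range above Dixon's 95% limit for 4 values), where chance alone flags about 1 in 20, or 2.7. All 3 were pregnant sow 1. It was at -0.20 for CD207, with the other pregnant sows between -2.41 and -2.09. For CD40 it was at 3.83, with the others between 3.43 and 3.49. For CD79A it was at 1.06, with the others between 0.60 and 0.66.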

How the results depend on the processing

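Calls stayed at 0 probes and 0 of the 27 genes in 15 alternatives and with each of 8 arrays left out; the smallest adjusted p of a gene given with full values was 0.324, with normexp (limma). Directions were less stable: of 21 such genes, 4 kept their sign throughout. Normexp background correction (offset 50) changed most of them. It raised the lowest signals of pregnant array 4 and non-pregnant arrays 1, 2 and 4. Their 5th percentile of corrected signal was 509 to 950, against 58.4 to 148 on the other 4. Before correction this percentile was 36 to 39 on all 8 arrays, and after plain subtraction with the same offset 52 to 56. The values with normexp, here and above, therefore compare arrays with unlike lowest signals. The cause was not tested. Plain subtraction, added after seeing the data, changed the sign of CD36 only (0.033).

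With normexp, the median log2 fold change was 0.25 for all genes, 0.52 for T and NK cell, 0.20 for B cell, -0.19 for antigen presentation, 0.80 for tetraspanin and 0.39 for broad genes. Single genes that changed sign with it were CD1E -0.61, CD207 -0.19, CD209 -0.50, CD247 0.67, CD3E 0.53, CD3G 0.52, CD47 0.62, CD58 0.16, CD72 0.25, CD79A 0.15, CD81 0.68 and CD9 0.80. On slide 1 alone these were CD247 0.079, CD302 0.079, CD36 0.021, CD3E 0.036, CD80 0.15 and CD81 0.25, and on slide 2 alone CD55 -0.023. Averaged over the probes of a symbol, CD36 was 0.0012 and CD9 0.0043. Partner pairs past the threshold were 5 with normexp (0 otherwise) and 0 to 1 with an array left out (1 without pregnant replicate 3).

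Leaving out 1 array gave ranges of -0.12 to 0.96 for CD1E, -0.23 to 0.018 for CD247, -0.25 to 0.17 for CD36, -0.11 to 0.20 for CD55, -0.29 to 0.016 for CD80, -0.17 to 0.40 for CD82 and -0.11 to 0.11 for CD9. The median of the 27 genes ran from -0.25 to -0.04.

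With the replicate block, 0 probes and 0 of the 27 genes were called. At an unadjusted limma p under 0.05 it gave 1 of the 27, CD209, and 797 of all probes (3.01%), against 0 and 608 (2.3%) without it. CD209 passed the filter through the pregnant group alone, in which its mean was higher, so its p is not read as a test. The replicate number is not known to pair sows: deviations of same-numbered sows from their group means correlated at 0.22, 0.48, 0.43 and -0.12, and 4 of 8 sows matched best the sow of their own number. The array weights may not have fully converged.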
